A study of Mus musculus with 6 samples.

Results

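The potassium channel subunit genes are the genes whose symbol is Kcn, a family code of 1 to 3 letters and a number. They were taken from a table of RNA counts in mouse brain, leaving out Kcne2 and Kcnj13, and each had at least 10 counts over the 6 libraries. The pattern matched 88 genes, and 86 of the 22584 genes in the table met the count minimum. The members nearest to that minimum were Kcnk18 with 13 counts in all and Kcnk7 with 18, and the genes left out were Kcnj15 with 8 and Kcne1 with 4. All 6 libraries came from brain of wild-type mice (genotype WT), with no age, strain or sex given, and neither group carried a treatment. In 3 libraries, the group called AllPrep, RNA was isolated with the AllPrep DNA/RNA/Protein Mini Kit, which takes several kinds of molecule from 1 lysate. In the other 3, labelled Ctrl and called TRIzol here, RNA was extracted with TRIzol, a phenol and guanidine reagent, and precipitated with isopropanol. The comparison asks how the RNA measured after the kit differs from that after the conventional reagent. The labels tie no library to a mouse of its own, and the spread behind each p-value is that of these libraries and may be technical.

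Potassium channels let potassium ions leave or enter a cell along their gradient and thereby set the resting potential of neurons and glia, end action potentials and limit repetitive firing. Voltage-gated subunits open on depolarization, inward rectifiers pass current best near rest, tandem-pore (K2P) subunits carry background leak, and the calcium-activated class, grouped here with its sodium-activated relatives, couples firing to ion entry. Auxiliary subunits form no pore of their own and change how the others traffic and gate. Of the 86 members, 39 were voltage-gated, 12 were inward rectifiers, 13 tandem-pore, 8 calcium- or sodium-activated and 14 auxiliary.

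The pore of these channels is marked by a short selectivity filter built around a glycine-tyrosine-glycine signature (glycine-phenylalanine-glycine in some pores), which strips water from potassium ions. Its codons are shown for 5 members, 3 that passed the test and 2 near its threshold, as the family feature that the naming rule did not use. Each line is 36 bases of coding sequence, 5′ to 3′, from the longest coding transcript of the gene in GENCODE release vM21, and the 15 bases in capitals are the 5 codons of the filter.
Kcns3: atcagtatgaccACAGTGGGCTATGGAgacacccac
Kcng3: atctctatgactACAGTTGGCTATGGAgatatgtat
Kcnn1: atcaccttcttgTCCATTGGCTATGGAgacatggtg
Kcnj6: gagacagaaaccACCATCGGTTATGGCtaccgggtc
Kcnk4, first pore: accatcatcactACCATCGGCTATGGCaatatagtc
Kcnk4, second pore: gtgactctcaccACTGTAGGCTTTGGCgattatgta
Kcnk4, whose subunit carries a pair of pore domains, held the pattern at 2 places, and the other 4 genes shown held it once. The windows of Kcng3 and Kcns3, both silent subunits, were identical at 27 of 36 bases and at 14 of the 15 in capitals. Those of Kcnj6 and the first pore of Kcnk4, from different classes, were also identical at 14 of the 15 in capitals, and at 21 of 36 bases.

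Of the 86 members, 78 had enough counts to be tested between AllPrep and TRIzol, and 5 passed the threshold of an adjusted p below 0.05 in edgeR's quasi-likelihood test (Benjamini-Hochberg over all 16325 genes tested). Kcnq3 and Kcnn3 rose in AllPrep, and Kcns3, Kcnk4 and Kcnn1 fell. That is 6.41% of the tested members against 3.8% of all genes tested, 2.56% against 2.52% in the upward direction and 3.85% against 1.28% downward, so the upward share was near the background and the downward share rests on 3 genes. The libraries of the 2 methods did not overlap for 20 tested members, 13 higher and 7 lower in AllPrep, or 25.6% against 33.1% of all genes tested. In all, 46 members had positive and 32 negative log2 fold changes (AllPrep over TRIzol), with a median of 0.092 against -0.011 over all genes. With trends on transcript length and GC content removed, the median of the members was 0.014, with 41 positive and 37 negative values.

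**Figure D1:**
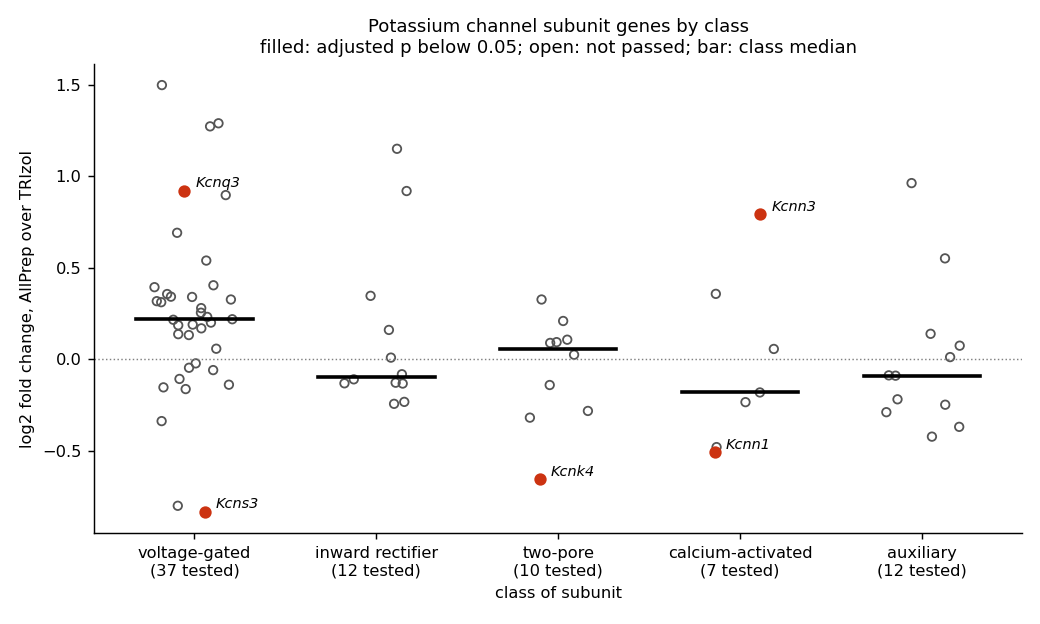
Log2 fold change of the 78 tested members (vertical axis, AllPrep over TRIzol) by class of subunit; each circle is 1 gene, filled where the adjusted p was below 0.05, and bars are class medians. Most voltage-gated members lie above 0, with Kcnq3 among the higher and Kcns3 the lowest of all.

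Most voltage-gated members had positive values. Of 37 tested, 27 had positive and 10 negative log2 fold changes, or 73.0% positive against 48.5% of all genes tested (median 0.22), 1 rose, 1 fell and 35 did not pass, or 5.41% called. Its summed level was 2859, 3040.3 and 3212 CPM (counts scaled to a common normalized library size) in TRIzol replicates 1 to 3 and 3457, 3720.3 and 3464 CPM in AllPrep replicates 1 to 3. Every AllPrep library was thus above every TRIzol library in this sum. With length and GC trends removed the class median was 0.11, with 24 positive and 13 negative values.

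Kcnq3 had the smallest p of all members. It contributes to the M-channel, a slow current that opens near threshold and damps repeated firing. Kcnq3 had 152, 138 and 190.4 CPM in TRIzol replicates 1 to 3 and 275, 337 and 299 CPM in AllPrep replicates 1 to 3, so that the lowest AllPrep library lay well above the highest TRIzol library (160.0 ± 27.3 against 303 ± 31.4 CPM, SD, n = 3; 1.90-fold; log2 fold change 0.92 with SE 0.14, adjusted p = 0.026 in edgeR). Kcnq5, which also contributes to M-currents in the forebrain, had 105, 90.7 and 87.1 CPM in TRIzol and 101, 126 and 106 CPM in AllPrep with overlap (log2 fold change 0.23 with SE 0.11, adjusted p = 0.24). Kcnq1, best known from the heart, stayed below 1 CPM in every library and did not pass (log2 fold change 0.32). The Kcnq3 call was lost with length and GC trends removed (log2 fold change 0.61, adjusted p = 0.059) and on leaving out any library other than TRIzol replicate 3 (adjusted p over the 6 fits 0.037 to 0.078).

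**Figure D2:**
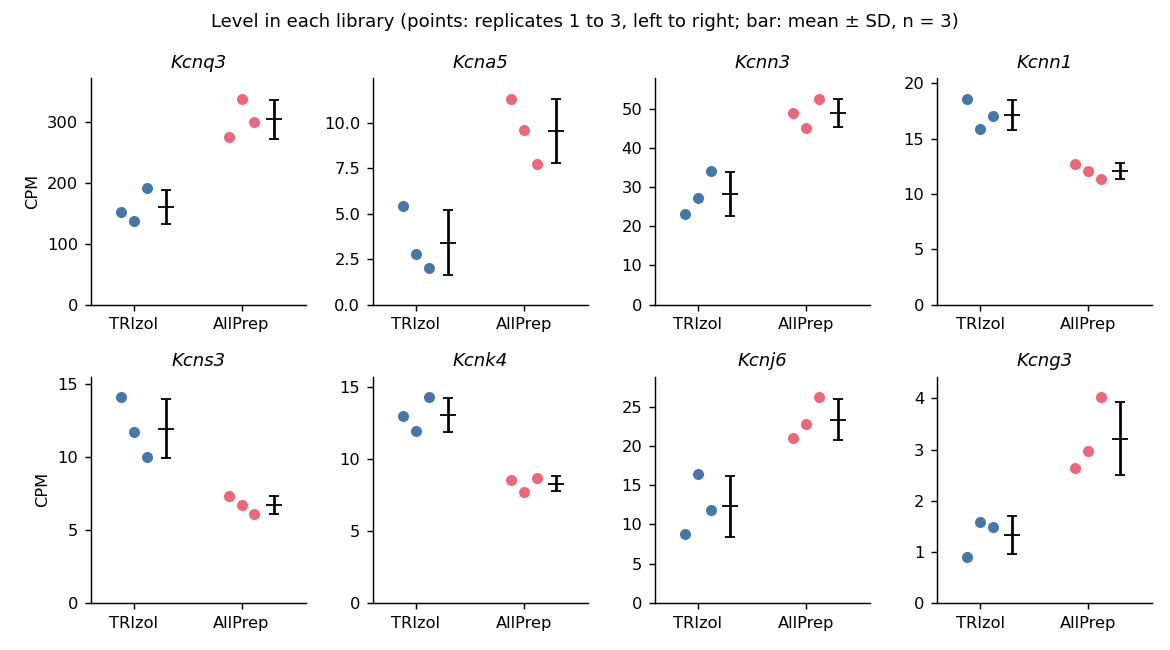
Level (CPM, linear axis from 0, own scale per panel) of 8 members in each library; points are replicates 1 to 3 from left to right and bars give mean ± SD (n = 3). The 8 genes were chosen with their values known, and the 2 methods overlap for none of them, so that separation comes with the choice. Of all tested members 25.6% did not overlap, against 33.1% of all genes tested. Kcnq3, Kcnn3, Kcnn1, Kcns3 and Kcnk4 passed the threshold and Kcna5, Kcnj6 and Kcng3 did not.

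The silent subunits did not share a direction. Kcnf, Kcng, Kcns and Kcnv subunits (Kv5, Kv6, Kv9 and Kv8) carry no current alone and instead join Kcnb subunits (Kv2) and shift their gating. Kcns3, which is known from parvalbumin interneurons of the cortex, fell: it had 14.1, 11.8 and 10.04 CPM in TRIzol and 7.31, 6.72 and 6.10 CPM in AllPrep, without overlap (1.78-fold lower; log2 fold change -0.83 with SE 0.15, adjusted p = 0.035 in edgeR). Kcng3 had a positive value, with 0.903, 1.58 and 1.49 CPM in TRIzol and 2.65, 2.97 and 4.02 CPM in AllPrep, and just missed the threshold (log2 fold change 1.27 with SE 0.27, adjusted p = 0.0503). Kcng4 had 12.4, 22.5 and 15.5 against 12.8, 10.7 and 5.50 CPM, with AllPrep replicate 3 the lowest library, and did not pass (adjusted p = 0.17). Kcng1 was 21.1, 15.6 and 17.4 against 19.2, 23.3 and 44.8 CPM, and here AllPrep replicate 3 was the highest library. The other silent subunits that were tested, Kcnf1, Kcng2, Kcns1, Kcns2 and Kcnv1, had log2 fold changes from -0.14 to 0.54, and none passed.

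Among the Kv2 genes, Kcnb2, which encodes a delayed rectifier, had 30.5, 32.6 and 39.0 CPM in TRIzol and 40.5, 46.6 and 43.7 CPM in AllPrep without overlap and did not pass (log2 fold change 0.36 with SE 0.11, adjusted p = 0.098). Leaving out any library other than TRIzol replicate 3 ended the Kcns3 call (adjusted p over the 6 fits 0.047 to 0.11). Summed CPM of the 4 listed parvalbumin-interneuron markers was 588 to 662 in TRIzol and 636 to 878 in AllPrep, and 1 of 4 rose (Erbb4). Gad1 made up most of each sum, with 472, 499 and 447 CPM in TRIzol and 626, 538 and 436 CPM in AllPrep. Pvalb had 59.8, 54.4 and 54.0 against 33.8, 36.2 and 15.6 CPM (adjusted p = 0.084 in edgeR). Tac1 and Gad1 had positive log2 fold changes of 0.81 and 0.17 and did not pass. The part of these cells in the Kcns3 difference was not tested. In bulk RNA, fewer cells of a type and less RNA per cell cannot be told apart.

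Among Kv1 channels, which line axons and the flanks of nodes of Ranvier, no member passed in edgeR. Of 6 tested, 2 had an unadjusted p below 0.05, Kcna3 and Kcna5, or 33.3% against 25.8% of all genes tested. DESeq2 called both and limma-voom called Kcna5. Kcna2, the most counted Kv1 gene, had 282, 335 and 389 CPM in TRIzol and 420.2, 419 and 329.7 CPM in AllPrep. Kcna1, its axonal partner, was low in TRIzol replicate 1 alone (46.3, 96.7 and 90.9 against 103, 106 and 81.4 CPM). The largest positive value of all tested members belonged to Kcna5, at 5.42, 2.76 and 2.02 against 11.3, 9.61 and 7.76 CPM without overlap (log2 fold change 1.5 with SE 0.35, adjusted p = 0.057). Kcna3, best known from T cells, had 1.121, 5.13 and 1.80 against 6.38, 6.64 and 6.68 CPM. Its AllPrep libraries were nearly equal while TRIzol replicate 2 stood close to them and far from the other two, and it did not pass (adjusted p = 0.15).

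None of the fast and transient channels passed. All 4 Kv3 genes, Kcnc1 to Kcnc4, whose channels allow fast spiking, had small negative values from -0.16 to -0.022, with 0 at an unadjusted p below 0.05 in edgeR and none called by DESeq2 or limma-voom. All 3 Kv4 genes, which carry the transient A-current of dendrites, had positive values from 0.13 to 0.40. Of these, 1 had an unadjusted p below 0.05, or 33.3% against 25.8% of all genes tested. Kcnc2 had 111, 126 and 196 against 134, 129 and 126 CPM, with TRIzol replicate 3 the highest library. Of the 8 ether-a-go-go genes, Kcnh1 to Kcnh8, 7 had positive values. An unadjusted p below 0.05 was found for 2 of the 8, or 25% against 25.8% of all genes tested. The largest value was that of Kcnh5 (0.90), which DESeq2 alone called and whose libraries overlapped at 7.25, 17.5 and 8.92 against 24.7, 24.0 and 14.0 CPM.

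Calcium-activated channels held an opposed pair. The 3 SK genes tested encode small-conductance channels that open on calcium and set the afterhyperpolarization that follows spikes. Kcnn3 rose, from 23.2, 27.3 and 34.2 CPM in TRIzol to 49.1, 45.2 and 52.5 CPM in AllPrep (1.73-fold; log2 fold change 0.79 with SE 0.14, adjusted p = 0.035 in edgeR). Kcnn1 fell, from 18.6, 15.9 and 17.0 CPM to 12.7, 12.1 and 11.3 CPM (1.42-fold lower; log2 fold change -0.51 with SE 0.10, adjusted p = 0.041 in edgeR). The methods overlapped for neither gene. Kcnn2 had 19.1, 18.0 and 19.2 against 15.5, 16.3 and 17.9 CPM and did not pass (log2 fold change -0.18, SE 0.091).

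The ratio of Kcnn3 to Kcnn1 CPM was 1.25, 1.72 and 2.01 in TRIzol replicates 1 to 3 and 3.86, 3.74 and 4.64 in AllPrep. Neither gene overlapped between the methods and they differed in opposite directions. Their ratio was therefore bound to separate the methods and adds no support to the calls of Kcnn3 and Kcnn1. Both calls were lost with length and GC trends removed (log2 fold changes 0.60 and -0.55, each with an adjusted p of 0.052). Leaving out any 1 library ended the Kcnn1 call (adjusted p 0.069 to 0.12), and leaving out any but TRIzol replicate 3 ended that of Kcnn3 (adjusted p over the 6 fits 0.042 to 0.10). Exons of Kcnn1 overlap those of an antisense gene, A230052G05Rik, over 132 bases in GENCODE vM21, and the strand setting of the counting is not known here, so that reads of the pair may be mixed. Several other named members have such overlaps too, among them Kcnma1 with 4930519K11Rik over 1016 bases.

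Kcnn4, the intermediate-conductance relative found mainly outside neurons, was too low to be tested. It had 2 counts in each TRIzol library and 14, 15 and 10 counts in AllPrep replicates 1 to 3. In a fit without the filter on low counts it did not pass (adjusted p = 0.063).

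No Slo channel passed in edgeR, and neither DESeq2 nor limma-voom called any of them. Kcnma1 and Kcnu1 had an unadjusted p below 0.05. In the calcium-activated class, 4 of 7 tested members had such a p, or 57.1% against 25.8% of all genes tested. Kcnma1, the pore of the BK channel that joins voltage and calcium sensing, had 296, 247 and 322 CPM in TRIzol and 323, 363 and 423 CPM in AllPrep, nearly touching but not overlapping (log2 fold change 0.36 with SE 0.13, adjusted p = 0.14). Kcnt1, a sodium-activated channel, had 193, 203 and 138 against 160.2, 162 and 131 CPM with overlap, and Kcnt2 was within its spread at 35.4 ± 7.16 and 36.8 ± 1.119 CPM (SD, n = 3). Kcnu1, known as a channel of sperm, was low throughout, at 4.40, 4.26 and 3.86 against 2.78, 3.21 and 2.98 CPM (log2 fold change -0.48 with SE 0.15, adjusted p = 0.10). Summed over the class, levels were 597, 551 and 563 CPM in TRIzol and 599.7, 640.4 and 675 CPM in AllPrep, every AllPrep sum being above every TRIzol sum by a narrow margin. Kcnma1 made up much of each sum, while the class median was -0.18 over 7 tested members, 3 of them positive. Without TRIzol replicate 1 the class median was 0.024. That fit tested 79 members against 78 in the main fit, so the genes behind this median may not be the same.

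**Figure D3:**
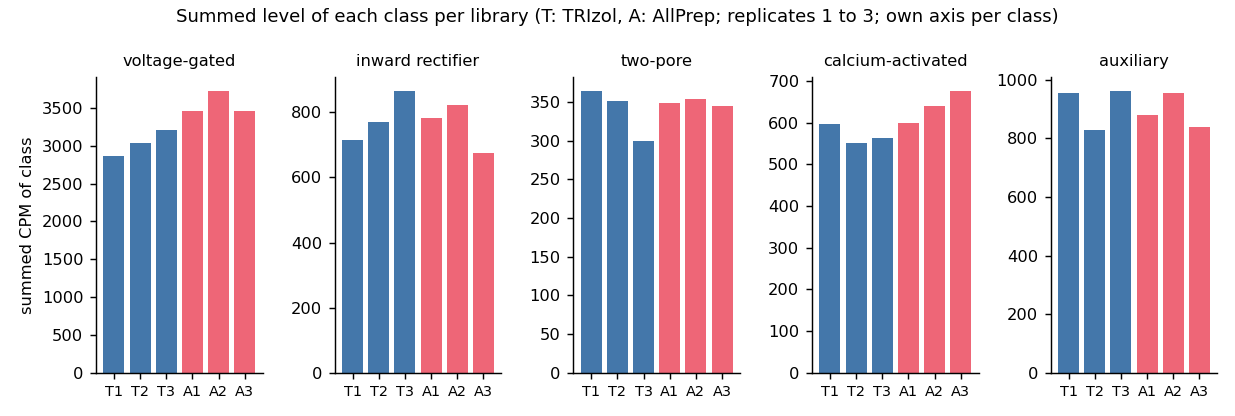
Summed CPM of all members of a class (bars from 0, own axis per class) in TRIzol (T1 to T3) and AllPrep (A1 to A3) replicates. The voltage-gated and calcium-activated sums are higher in each AllPrep library than in any TRIzol library, and the other 3 classes overlap.

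No inward rectifier passed in edgeR, among 12 tested, and DESeq2 and limma-voom called Kcnj6. At an unadjusted p below 0.05 were 2 members, or 16.7% against 25.8% of all genes tested. The class median was -0.096, with 5 positive and 7 negative values, and it was 0.054 without AllPrep replicate 3 and 0.011 without TRIzol replicate 3. Kcnj6, one of 3 brain subunits of the G-protein-gated channels through which transmitters such as GABA slow neurons, came closest, with 8.73, 16.4 and 11.9 CPM in TRIzol and 21.0, 22.8 and 26.2 CPM in AllPrep (log2 fold change 0.92 with SE 0.22, adjusted p = 0.059). The methods did not overlap, TRIzol replicate 1 being the lowest. Its partners Kcnj3 and Kcnj9 showed no such gap: Kcnj3 had 129, 119 and 151 against 110.0, 135 and 132 CPM, and Kcnj9 119, 129.5 and 164 against 107, 125 and 119 CPM. The ratio of Kcnj6 to Kcnj3 was 0.0676, 0.138 and 0.0786 in TRIzol and 0.191, 0.169 and 0.199 in AllPrep. In GENCODE vM21, exons of Kcnj3 overlap the antisense gene Gm26794 over 1621 bases and those of Kcnj6 overlap Gm41505 over 380. Reads of these genes may thus be mixed.

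Kcnj5, the fourth G-protein-gated subunit and the one typical of the atrium, was even in TRIzol (1.42, 1.68 and 1.56 CPM) and scattered in AllPrep (5.48, 3.48 and 1.44 CPM). AllPrep replicate 3 lay within the TRIzol range, and the gene did not pass (adjusted p = 0.15). Kcnj4, a strong rectifier of forebrain neurons, had 98.0, 75.5 and 69.2 against 83.8, 118 and 107 CPM. Kcnj11, the pore of the ATP-sensitive channel, had a log2 fold change of -0.24, and Kcnj8, which forms that channel in pericytes, -0.13.

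Kcnj10, the rectifier by which astrocytes and oligodendrocytes take up potassium, had 245, 300.3 and 337 CPM in TRIzol and 333, 289 and 185 CPM in AllPrep. Both its lowest and its second highest library were AllPrep libraries, so it showed no difference beyond its spread (adjusted p = 0.74). In AllPrep replicate 3, where it was lowest, the 5 oligodendrocyte markers summed to 2468 CPM against 3978 and 4334 CPM in replicates 1 and 2. The 5 astrocyte markers summed to 1978 against 1918 and 1936 CPM. In TRIzol replicates 1 to 3 the oligodendrocyte sums were 5102, 5362 and 4455 CPM, each above every AllPrep library. Within TRIzol, Kcnj10 was lowest in replicate 1 and highest in replicate 3. The astrocyte sums in TRIzol replicates 1 to 3 were 1695, 2036 and 2025 CPM. The part of either cell type in the Kcnj10 values was not tested. Kcnj16, its glial partner, had 22.3, 39.4 and 37.1 against 37.8, 34.1 and 38.6 CPM, with TRIzol replicate 1 lowest.

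Of 10 tandem-pore genes tested, Kcnk4 alone passed, and it fell. Kcnk4 encodes TRAAK, a leak channel opened by stretch and heat. It had 13.0, 11.9 and 14.3 CPM in TRIzol and 8.51, 7.70 and 8.64 CPM in AllPrep, with the AllPrep libraries close together and all below TRIzol (1.58-fold lower; log2 fold change -0.66 with SE 0.11, adjusted p = 0.033 in edgeR). Leaving out any 1 library ended the call (adjusted p 0.063 to 0.10). In GENCODE vM21 its exons share 587 bases with Catsperz on the same strand, and Catsperz had 2.27, 1.84 and 3.18 against 1.31, 1.41 and 0.660 CPM (adjusted p = 0.10), so counts of both are uncertain where reads could be split.

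Its relative Kcnk2, a mechanosensitive leak channel with higher counts, had 69.3, 57.5 and 36.5 CPM in TRIzol and 67.1, 81.9 and 55.8 CPM in AllPrep. TRIzol replicate 3 was the lowest library. Kcnk9 and Kcnk3, which encode acid-sensitive leak channels, had 153, 163 and 129 against 159, 142 and 179.7 CPM and 26.4, 23.0 and 19.7 against 21.1, 20.7 and 14.96 CPM. Both overlapped between the methods. Kcnk1 was also within its spread (70.4, 65.0 and 64.7 against 59.9, 70.1 and 51.6 CPM), and so was the lowly counted Kcnk12 (3.94, 4.98 and 6.33 against 4.46, 4.09 and 3.70 CPM). The summed level of the class was 364, 351 and 299 CPM in TRIzol and 348, 354 and 345 CPM in AllPrep. Its median of 0.057 turned to -0.084 with length and GC trends removed and to -0.022, -0.016 and -0.0098 without TRIzol replicate 2, AllPrep replicate 1 and AllPrep replicate 3.

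No auxiliary subunit passed in edgeR, among 12 tested. At an unadjusted p below 0.05 were 2 members, or 16.7% against 25.8% of all genes tested. DESeq2 called Kcnip2 and limma-voom called none. The class median was -0.089, with 5 positive and 7 negative values. Kcnip2, a calcium sensor that brings Kv4 channels to the membrane, was the closest to passing, with 110.4, 82.7 and 69.5 CPM in TRIzol and 126, 135 and 124 CPM in AllPrep (log2 fold change 0.55 with SE 0.16, adjusted p = 0.084). TRIzol replicate 1 was near the AllPrep libraries, and without it Kcnip2 passed (log2 fold change 0.75, adjusted p = 0.039). Its relatives Kcnip3 and Kcnip4 had negative values: Kcnip3 had 141, 110.4 and 137 against 97.1, 115 and 115 CPM, and Kcnip4 62.1, 65.1 and 72.5 against 59.0, 59.4 and 45.1 CPM.

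The Kv beta subunits, which attach to Kv1 channels inside the cell, include the member with the highest level per length. Kcnab2 had 416, 383 and 478 CPM in TRIzol and 387, 416 and 397 CPM in AllPrep, and Kcnab1 148, 103 and 121 against 122, 149 and 104 CPM. For both, the methods overlapped. Kcnab3 was 39.7, 36.5 and 43.4 against 39.4, 36.2 and 17.1 CPM, where AllPrep replicate 3 alone was low. Among BK beta subunits, Kcnmb1, known from smooth muscle, had 1.31, 0.306 and 1.05 against 1.95, 1.75 and 1.52 CPM without overlap and did not pass (adjusted p = 0.23). The 6 endothelial and mural markers summed to 284 to 370.1 CPM in TRIzol and 334 to 369 CPM in AllPrep, and their part in it was not tested. The neuronal Kcnmb4 and Kcnmb2 had log2 fold changes of -0.22 and -0.088.

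Levels differed widely between genes. Per kilobase of the longest annotated transcript, averaged over all 6 libraries, Kcnab2 had 105 CPM, the highest of the members. Kcnj10 had 52.1, Kcnip3 43.7 and Kcnj4 42.7 CPM per kilobase. Kcnq3 stood at rank 23 of 86, with 13.5 CPM per kilobase in TRIzol and 25.7 in AllPrep. On that scale Kcnn3, Kcnk4, Kcnn1 and Kcns3 were near one another, at 4.64, 4.20, 3.61 and 3.18 CPM per kilobase. The 8 members not tested, Kcna10, Kcne3, Kcnk7, Kcnk15, Kcnk18, Kcnmb3, Kcnn4 and Kcnv2, had at most 15 counts in any library. Of these, Kcnk7, Kcnk18, Kcnmb3 and Kcnv2 had a library with 0 counts, which allows up to 3 counts (counting error only). That limit takes each count as a fragment of its own and would be higher if both reads of a pair were counted.

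Longer transcripts tended to have higher values. Over the 78 tested members, Spearman's rho between transcript length and log2 fold change was 0.317, against 0.310 over 16219 genes tested with a known length; genes share the same 6 libraries and are not independent. The 25 members with at least 5000 bases had a median of 0.17 and 18 positive values, and the 19 under 3000 bases a median of -0.14 and 5 positive values. Kcnq3 and Kcnn3, which rose, have transcripts of 11824 and 8314 bases, and Kcns3, Kcnk4 and Kcnn1, which fell, of 2933, 2537 and 4047 bases. Kcns3 and Kcnk4 still passed with length and GC trends removed (log2 fold changes -0.80 and -0.62, adjusted p = 0.048 and 0.049 in edgeR). The shorter Kcna5, Kcna3 and Kcng3 had the 3 largest positive values.

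**Figure D4:**
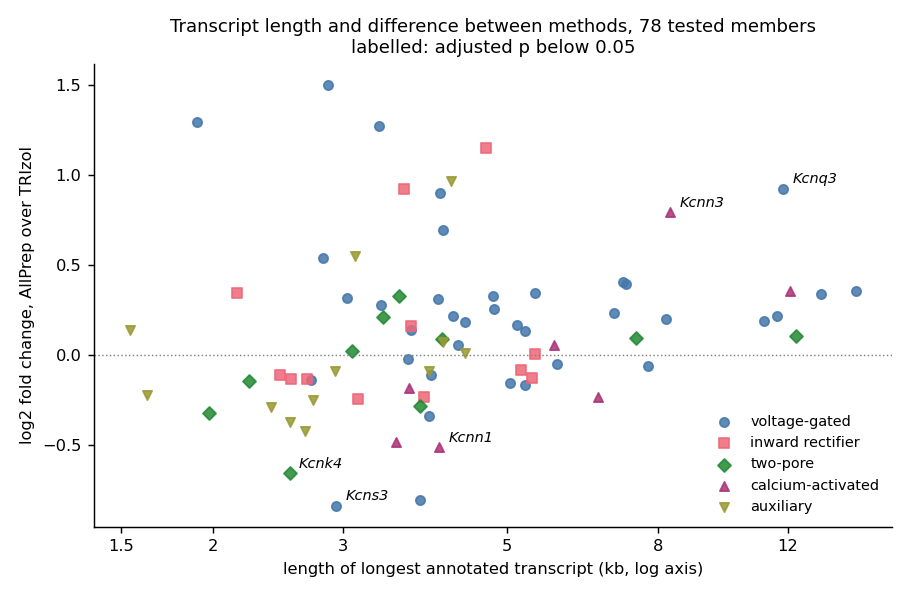
Log2 fold change (AllPrep over TRIzol) of the 78 tested members against the length of the longest annotated transcript (kb, log axis), 1 point per gene and 1 symbol per class. The 2 genes that rose lie at the right and the 3 that fell at the left or middle, while several short genes also have high values without passing.

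Genes that work with these channels were read from a list of 30 partners, such as clustering scaffolds, and a list of 31 other ion channels, transporters and pumps. Of 29 tested partners 3 passed, all higher in AllPrep, or 10.3% against 2.52% upward in all genes, with a median of 0.055 over the list. They were Akap5, a kinase anchor (97.6, 88.5 and 86.0 CPM in TRIzol, 133, 141 and 146 CPM in AllPrep; log2 fold change 0.63, adjusted p = 0.02 in edgeR), Nedd4l, a ubiquitin ligase of membrane channels (0.56, adjusted p = 0.033), and Ank3, ankyrin-G, which anchors channels at the axon initial segment (0.38, adjusted p = 0.035). The Kv4 partners Dpp6 and Dpp10 had 0.36 and 0.21, and the sulfonylurea receptor Abcc8, partner of Kcnj11, -0.51, and none of these passed. The 30 tested genes in the other list had a median of 0.22, 24 of them being positive. Scn3a, a sodium channel prominent in developing brain, had 50.2, 60.4 and 45.2 CPM in TRIzol and 72.3, 70.2 and 78.3 CPM in AllPrep and did not pass (log2 fold change 0.50, adjusted p = 0.053 in edgeR).

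Total counts ran from 36395330 to 50937858 per library. Markers of several brain regions differed in level between the libraries. The choroid plexus markers rose, 7 of 7, from summed levels of 17.4 to 25.4 CPM in TRIzol to 629 to 1263 CPM in AllPrep, and 3 of 6 ependymal and 3 of 5 tested hypothalamic markers rose too. Striatal markers summed to 129 to 514 and 290.5 to 848 CPM, thalamic markers to 118 to 805 and 147 to 332 CPM, and pan-neuronal markers to 5744 to 6472 and 4946 to 5718 CPM. Gabra6, which defines cerebellar granule cells, had at most 0.0531 CPM in any library, and Hcrt, a hypothalamic marker, was at 0 in TRIzol replicates 1 and 3. The part of tissue make-up in the members' differences was not tested. Kcne2 and Kcnj13, channel genes of the choroid plexus that the naming rule leaves out, had 0.274, 0.306 and 0.131 against 3.67, 3.24 and 6.24 CPM and 0.137, 0.689 and 0.482 against 2.87, 2.02 and 3.84 CPM.

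Single libraries stood apart for some members. Against the mean of the other 2 libraries of its method, on a log2 scale, 5 members deviated by more than 1 in TRIzol replicate 1, 3 in TRIzol replicate 2, 1 in TRIzol replicate 3, 1 in AllPrep replicate 1, 0 in AllPrep replicate 2 and 4 in AllPrep replicate 3. The median deviation in size was lowest in AllPrep replicate 1 (0.15) and highest in TRIzol replicate 3 (0.29). The members that deviated in AllPrep replicate 3 were Kcnj5, Kcnab3 and Kcng4, all low, and Kcng1, high. None of the 5 members that passed was among the 4 that deviated most in any library. A small spread within a method itself helps a gene to pass, so this does not show whether a call rests on 1 library.

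**Figure D5:**
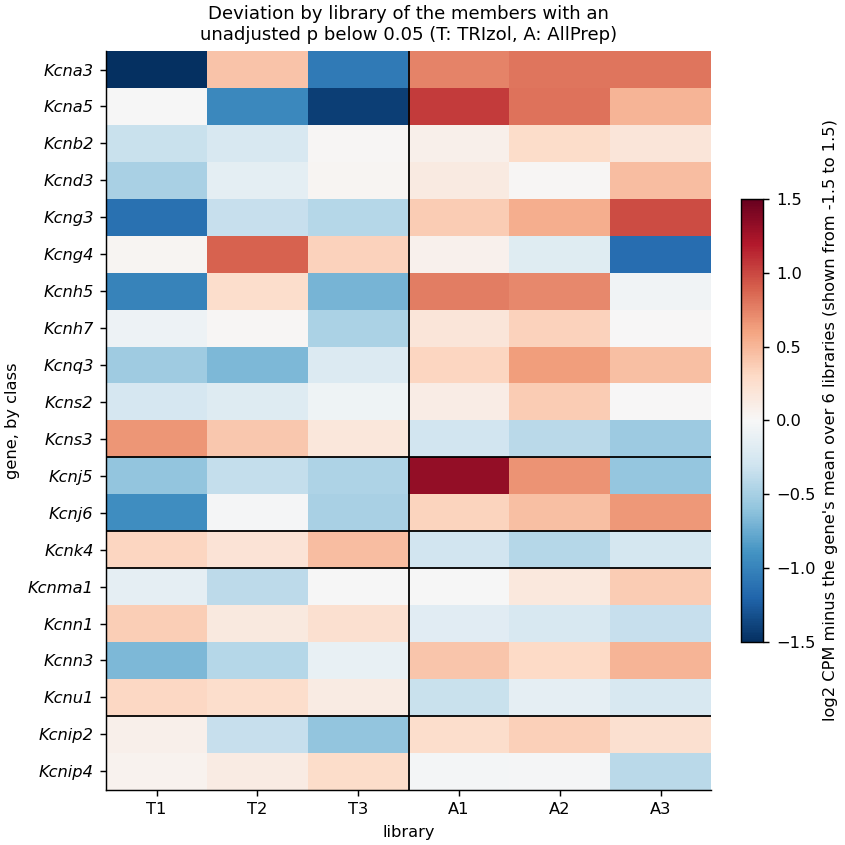
Log2 CPM minus the gene's mean over the 6 libraries (colour, shown from -1.5 to 1.5) for the 20 tested members with an unadjusted p below 0.05, with 1 row per gene, lines between classes and 1 column per library (T: TRIzol, A: AllPrep replicates 1 to 3). These 20 are 25.6% of the tested members, near the 25.8% of all genes tested with such a p. Kcnq3 and Kcnn3 are below their mean in all TRIzol and above it in all AllPrep libraries, Kcns3, Kcnk4 and Kcnn1 the reverse, and Kcng4 is low and Kcnj5 near its TRIzol values in AllPrep replicate 3.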

How the data were processed

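RNA of 6 mouse brain libraries was measured, 3 per method, after amplification by T7 transcription and paired 150-base reads, per the labels' protocols. The authors deposited raw counts per gene. Build GRCm39 and the tools STAR 2.7.9a, featureCounts, cutadapt, limma 3.60.6 and FastQC 0.11.9 are named in the submitters' processing notes; how strand and multi-mapping were handled is not given in the sources used here. From 22692 rows, 108 repeats of an Ensembl ID were removed, each with identical counts. The test was that of edgeR 4.0.16 under R 4.3.3 (filterByExpr, TMM, quasi-likelihood F-test, adjusted p below 0.05, two-sided, no block). An SE is the log2 fold change over the square root of F. CPM uses TMM-scaled library sizes, from total counts of 36395330 to 50937858. Replicates of a method differed beyond sampling noise (lowest chi-square per degree of freedom 14.3). Counting both reads of a pair would raise this value. Transcript lengths, GC and sequences came from GENCODE vM21 on another build, so no coordinates are given. Members, lists, classes and the naming rule were chosen with earlier results of these data known. Named were members past the threshold and, per class, the 3 with the smallest p and the 3 with the highest CPM; other members were named by subfamily after their values were seen, and some genes under the rule are not reported here. On simulated data of AllPrep against TRIzol (16325 genes) the edgeR step recovered 25.4% of 1.5-fold, 47.8% of 2-fold and 83.3% of 4-fold changes, and 4.59% of its calls were unchanged genes. Alternatives used DESeq2 1.42.0, limma 3.58.1 and mgcv 1.9.3.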

Additional observations from a re-analysis of the deposited data

How the results depend on the processing

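Of 420 refits of the named members, 379 kept the side of the threshold, 32 lost and 9 gained a call, and 0 reversed a call. Only the 5 called members could lose a call, so this pooled count says little about how stable their calls were. In 15 refits each, Kcnk4 kept its call in 8, Kcnn1 in 7, Kcnn3 and Kcnq3 in 9 and Kcns3 in 10. Members higher numbered 2 in edgeR as reported, 9 in DESeq2, 4 in limma-voom, 5 without the filter, 0 with length and GC trends removed, 7 at an adjusted p below 0.1, and 0 to 2 with 1 library left out; members lower numbered 3, 1 with the replicate block, and 0 to 1 with 1 library left out. The 9 in DESeq2 added Kcna3, Kcna5, Kcnb2, Kcng3, Kcnh5, Kcnip2 and Kcnj6. With length and GC trends removed, 2 of the 5 calls were shared, while scaling, filters, halved counts, DESeq2 and limma-voom kept all 5; a minimum of 1.5-fold removed Kcnn1. Over all genes, 412 were higher and 209 lower; DESeq2 gave 1275 and 826, the replicate block 195 and 41, length and GC trends removed 140 and 130, and library size alone 343 and 305 (52.9% higher against 66.3%). With 1 library left out these ran from 2 to 137 higher and 0 to 68 lower, both fewest without TRIzol replicate 2, where no member passed. In these fits a method has 2 libraries, which lowers power. Class medians moved with length and GC trends removed to 0.11 (voltage-gated), -0.084 (tandem-pore) and 0.014 (all members), and to -0.060 for the calcium-activated class without the filter; with 1 library left out they ran from -0.15 to 0.054 (inward rectifiers), -0.022 to 0.072 (tandem-pore) and -0.17 to 0.024 (calcium-activated). Each median covers the members that its fit tested: 78 in the main fit, 86 without the filter, and 78 or 79 with 1 library left out. A class median can therefore move because the set of genes changed. The causes of these changes were not tested. Replicate numbers were not treated as pairs: same-numbered libraries correlated in their deviations at -0.048, 0.0063 and 0.16, and not every library correlated best with its own number. Under the replicate block Kcnq3, Kcnn3 and Kcns3 passed (adjusted p = 0.045, 0.043 and 0.045 in edgeR), Kcna5 joined them, and Kcnk4 and Kcnn1 did not pass (0.058 and 0.072). Changes of 1.5-fold were the smallest simulated, so they were bound to be recovered least often. The simulation changed 67 genes by 1.5-fold, 67 by 2-fold and 66 by 4-fold, so recovery in the real data may differ.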

Other observations

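Rows named after potassium channel genes but outside the subunit pattern were also measured. Kcnq1ot1, the imprinted antisense RNA of the Kcnq1 locus, had 23.3, 14.2 and 20.6 CPM in TRIzol and 17.6, 16.9 and 28.8 CPM in AllPrep (log2 fold change 0.13 with SE 0.25, adjusted p = 0.79 in edgeR), far above the 0.566 ± 0.156 and 0.701 ± 0.138 CPM of Kcnq1 (SD, n = 3). Kcnd3os, by its name on the opposite strand of Kcnd3, had 1.121, 1.86 and 1.80 against 1.79, 1.54 and 2.62 CPM and did not pass (adjusted p = 0.54). Kcnrg, a cytosolic regulator of channel assembly, had 0.602, 0.255 and 0.351 against 0.317, 0.319 and 0.340 CPM. Kcnmb4os1 and Kcnmb4os2 were too low to test; Kcnmb4os1 had 18, 7 and 13 counts in TRIzol and 4, 5 and 7 in AllPrep. Since strand handling is not known here, reads of these antisense rows and of their partners may not be separated.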
